A study of Mus musculus with 6 samples.

Results

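The miR-181 family of the mouse was measured as its 4 guide strands, mmu-miR-181a-5p, mmu-miR-181b-5p, mmu-miR-181c-5p and mmu-miR-181d-5p (written without the species prefix from here on), in vesicles released by endothelial cells. The members were chosen by name, as every mouse probe for the 5p strand of miR-181a to miR-181d, and they make up 4 of the 1118 mouse microRNA (miRNA) probes on the array. Purchased mouse endothelial cells were held for 48 h at 0.9 mM inorganic phosphate (normal) or 3.5 mM (high), and exosomes were spun out of the supernatant by differential centrifugation. Both groups grew in the same medium, with 12% fetal bovine serum, endothelial growth supplement and heparin, and each group had 3 arrays. The labels give no passage, clone or culture for an array, so a p-value here covers only how these arrays vary, and that variation may be technical. The sources used here do not say whether the serum had been freed of vesicles, and its part in the signal was not tested.

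A miRNA guides Argonaute proteins to messenger RNAs through its seed, the stretch of bases near its 5′ end, and the guide strand is the arm of the hairpin that is mainly kept. In mice, miR-181a is known for tuning the sensitivity of the T cell receptor in developing thymocytes. In endothelial cells miR-181b is known to restrain inflammatory signalling by lowering importin-α3, a protein that carries the transcription factor NF-kB into the nucleus. The other members share the seed and can in principle reach many of the same messenger RNAs.

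The mature sequences show why the members are treated as one family and how little separates them. They are given 5′ to 3′ from RefSeq (GRCm38.p6), with the seed, bases 2 to 8, in capitals.
miR-181a-5p: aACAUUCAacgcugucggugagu
miR-181b-5p: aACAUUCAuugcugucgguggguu
miR-181c-5p: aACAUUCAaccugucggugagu
miR-181d-5p: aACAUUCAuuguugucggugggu

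Of 1679 mature mouse miRNA names in that RefSeq table, 4 carried this seed, and they were the 4 members. Counting from 1 at the 5′ end, miR-181b-5p differs from miR-181a-5p by A9U, C10U and A21G and is 1 base longer. The pair miR-181b-5p and miR-181d-5p differ by C12U and the last base, an edit distance of 2. The closest pair is miR-181a-5p and miR-181c-5p, at an edit distance of 1, with lengths of 23 and 22 bases. The most distant pairs, miR-181b-5p with miR-181c-5p and miR-181c-5p with miR-181d-5p, stand at an edit distance of 5. Sequences of the array's own probes are not used here, and cross-hybridization between members was not tested.

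The members come from 6 loci in 3 pairs. Mature miR-181a-5p lies at chr1:137966468-137966490 on the plus strand (Mir181a-1), 182 bases start to start from miR-181b-5p at chr1:137966650-137966673 (Mir181b-1). The same mature sequences recur at chr2:38852741-38852763 (Mir181a-2) and chr2:38853845-38853868 (Mir181b-2), 1104 bases apart, also on the plus strand. The chromosome 2 pair lies within the annotated spans of Nr6a1, which encodes an orphan nuclear receptor, and of the long non-coding RNA Nr6a1os. On the minus strand of chromosome 8, miR-181c-5p at chr8:84178924-84178945 (Mir181c) and miR-181d-5p at chr8:84178759-84178781 (Mir181d) start 165 bases apart. The array reports the mature strand, so the signal of miR-181a-5p or miR-181b-5p cannot be assigned to chromosome 1 or 2.

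Signal is given as the mean foreground minus local background over the 4 spots of a probe, in scanner units. As a threshold, the 95th percentile of 57 probes for miRNAs of mouse viruses was taken on each array. It ran from 1627 to 3233 units, and 129 of the 1118 mouse probes passed it on at least 3 arrays and entered the test. Empty spots had a 95th percentile of 2 or 3 units. The endothelial markers miR-126a-3p and miR-126a-5p exceeded the viral threshold on 6 of 6 arrays. Their summed signal ranged from 16243 to 18150 units on the normal arrays and from 11924 to 17480 on the high arrays. Markers of other cells were present too, with 4 of 4 red cell and serum miRNAs, 1 of 4 leukocyte miRNAs, 1 of 2 smooth muscle miRNAs and 0 of 4 epithelial miRNAs bright enough for the test. The summed signal of the 4 leukocyte markers, cells in which miR-181a is known, ranged from 4676 to 7615 units on the normal arrays and from 4088 to 5915 on the high arrays. The red cell and serum sum did not overlap, at 67884 to 87614 units in normal and 51753 to 62058 units in high phosphate. In these unscaled units 18 of the 129 tested probes (14%) did not overlap either, 15 of them lower in high phosphate, and after normalization 4 of the 4 red cell and serum markers overlapped. None of these markers was at 0, and their part in the miR-181 signal was not tested. Before scaling, the mean log2 signal of the tested probes averaged 12.70 ± 0.07 (SD, n = 3) over the normal arrays, against 12.53 ± 0.11 (SD, n = 3) over the high arrays. The Hy3 label spots were dimmer in high phosphate, with a mean log2 signal of 8.90 ± 0.15 (SD, n = 3) against 9.57 ± 0.18 (SD, n = 3) in normal phosphate. Neither quantity overlapped between the groups (exact permutation test, 2-sided, p = 0.1, the lower limit for 3 arrays against 3).

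All 4 guide strand probes gave signal far above the Empty spots on 6 of 6 arrays. The brightest were miR-181a-5p and miR-181d-5p, which exceeded the viral threshold on 6 of 6 arrays each. For miR-181b-5p this held on 2 of 6 arrays, and for miR-181c-5p on 0 of 6, so these 2 were not part of the test across probes. The member nearest the threshold from inside was miR-181d-5p, at 1.13 times it in high phosphate replicate 1. From outside it was miR-181b-5p, at 0.884 times in high phosphate replicate 2. Saturation touched 0 spots of the members.

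The probe for miR-181a-5p measured 3934, 4872 and 4514 units in normal phosphate replicates 1 to 3. In high phosphate replicates 1 to 3 it measured 3947, 4912 and 2771 units. The groups overlapped, and 1 array, high phosphate replicate 3, lay below all others. The mean was 4440 ± 473 units (SD, n = 3) for normal phosphate, against 3877 ± 1072 units (SD, n = 3) for high. After quantile normalization the log2 difference, high minus normal, was -0.13 (SE 0.25; 95% interval -0.72 to 0.45; adjusted p = 0.924 in limma with Benjamini-Hochberg adjustment). Dropping high phosphate replicate 3 turned it to 0.057, and dropping replicate 2 of that group gave -0.35.

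The endothelial regulator miR-181b-5p measured 1410, 3340 and 2209 units in the 3 normal arrays. The 3 high arrays gave 1840, 1963 and 2973 units. The groups overlapped fully, and each held 1 bright array, normal phosphate replicate 2 and high phosphate replicate 3. The means were 2320 ± 970 and 2258 ± 621 units (SD, n = 3). The log2 difference after normalization was 0.09 (2-sided exact permutation p = 0.8). Fitted with all 1118 mouse probes it had a 95% interval from -0.74 to 0.92 (limma, adjusted p = 0.990). It turned to -0.13 when normal phosphate replicate 1 was dropped and to -0.17 when high phosphate replicate 3 was.

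The dimmest member, miR-181c-5p, measured 994, 1192 and 1200 units in normal phosphate and 1113, 745 and 981 units in high phosphate. The lowest array was high phosphate replicate 2 and the groups overlapped. The means were 1128 ± 116 and 946 ± 187 units (SD, n = 3), and the log2 difference after normalization was -0.26 (2-sided exact permutation p = 0.4). Fitted with all mouse probes its 95% interval ran from -0.75 to 0.23 (limma, adjusted p = 0.775). Dropping high phosphate replicate 2 gave -0.07, and dropping replicate 1 of that group gave -0.43.

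Its chromosome 8 neighbour miR-181d-5p measured 2611, 4498 and 3906 units in normal phosphate. In high phosphate the means of the 3 arrays lay close together, at 3021, 3253 and 3044 units, within the range of the normal arrays. The single spots behind them did not. The highest spot was 1.39, 2.40 and 1.86 times the lowest on these arrays, against 1.07, 1.15 and 1.03 times on the normal arrays. The means were 3671 ± 965 and 3106 ± 128 units (SD, n = 3). The log2 difference was -0.10 (SE 0.22; 95% interval -0.61 to 0.41; limma adjusted p = 0.948). It was 0.030 without normal phosphate replicate 2 and -0.27 without normal phosphate replicate 1.

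**Figure D1:**
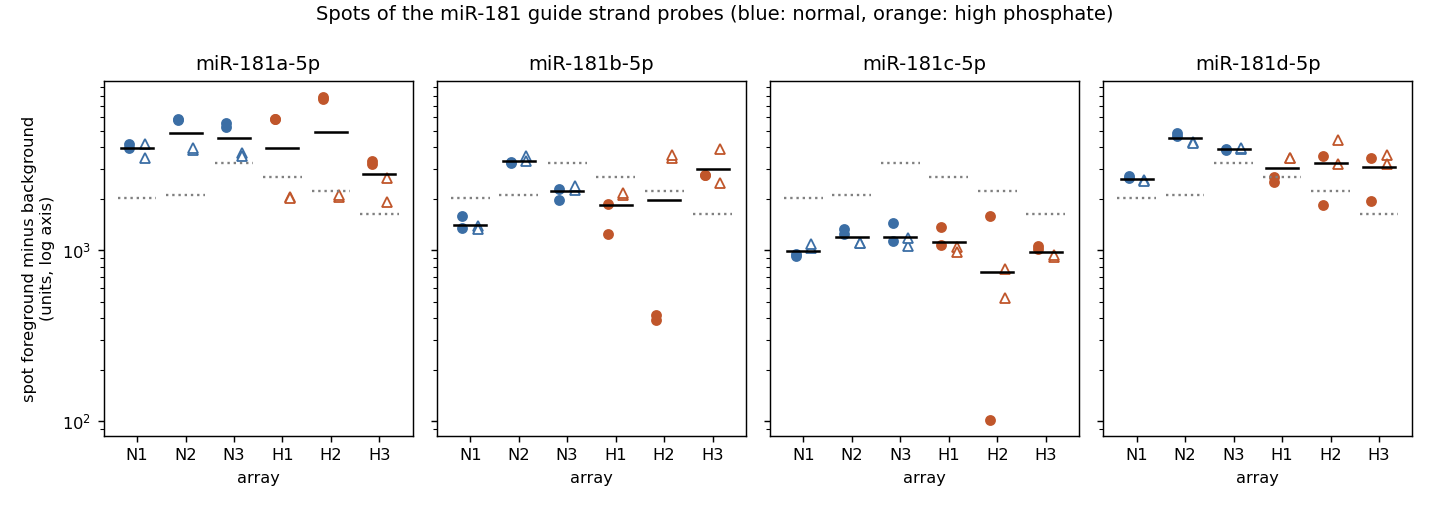
Spot signal (foreground minus background, units, log axis) of the 4 guide strand probes on the 3 normal (N1 to N3, blue) and 3 high phosphate arrays (H1 to H3, orange). Filled circles are the 2 spots in blocks 1 to 18 and open triangles the 2 spots in blocks 19 to 36. Black bars are the mean of the 4 spots and dotted lines the viral threshold. The pairs of spots lie furthest apart for miR-181b-5p on H2 and for miR-181a-5p on H2 and H1. The spots of miR-181a-5p also fall into separate pairs on N2, N3 and H3.

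Between the phosphate levels, then, 0 of the 2 tested members passed. Over all tested probes limma called 0 of 129 (0%) after adjustment, and 9 (6.98%) had an unadjusted p under 0.05. The fit without moderated variances called 0 after adjustment and 5 before it. Groups did not overlap for 13 of 129 tested probes (10.1%) after normalization and for 0 of the 4 members. The 95% interval reached a median of 0.61 above and below the estimate on the log2 scale over the tested probes, or 1.53-fold. Fewer vesicles and less of a miRNA per vesicle cannot be told apart in these arrays. Quantile normalization covered the mouse and viral miRNA probes, so each difference after it is relative to that whole set. The median difference of the tested probes was then -0.02, with 48.1% of them higher in high phosphate. Scaling to the spike controls moved that median to 0.42 (91.5% higher) and scaling to the Hy3 spots to 0.46 (92.2% higher). The differences of miR-181a-5p, miR-181c-5p and miR-181d-5p turned positive with both, and relative to the median of the tested probes miR-181a-5p then stood at -0.02 and miR-181d-5p at 0.01. That of miR-181b-5p went from 0.09 to 0.64 with the spike controls and 0.68 with the Hy3 spots (2-sided exact permutation p = 0.3 each). Without scaling between arrays the median was -0.22 (27.9% higher).

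In the authors' deposited table, which sets test over control, the fold change was 0.883 for miR-181a-5p (p = 0.423), 0.974 for miR-181b-5p (p = 0.925), 0.820 for miR-181c-5p (p = 0.243) and 0.898 for miR-181d-5p (p = 0.497). The lowest false discovery rate among the 4 in the authors' deposited table was 0.794. Relative to 1, the fold lies on the other side from the log2 difference above for miR-181b-5p, whose difference was near 0 in both. The 2 measures are not alike. Taken as a difference of mean log2 values, the authors' normalized intensities gave 0.03 for miR-181b-5p, the same sign as above.

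Paralogs were compared within each array by the mean signal of the 4 spots. The order from brightest to dimmest was miR-181a-5p, miR-181d-5p, miR-181b-5p, miR-181c-5p on 5 of 6 arrays. In high phosphate replicate 3 it was miR-181d-5p, miR-181b-5p, miR-181a-5p, miR-181c-5p. The order depended on which of the 2 printed copies of a probe was read. It held on 4 of 6 arrays in the copy in blocks 1 to 18, where miR-181a-5p was the brightest on 6 of 6. In the copy in blocks 19 to 36 it held on 1 of 6 arrays, miR-181d-5p was brighter than miR-181a-5p on 5 of 6, and miR-181b-5p was brighter than miR-181a-5p on all 3 high arrays and on 0 of the 3 normal arrays. Probes differ in how strongly they bind and label, so this is an order of signals and not of molecules. Next to each other in this order, miR-181a-5p and miR-181d-5p did not separate beyond their spread, with a ratio within an array from 0.910 to 1.51. The ratio of miR-181b-5p to miR-181d-5p was below 1 on 6 of 6 arrays, from 0.540 to 0.977, and in the first copy alone it reached 1.02 on 1 array. By its mean over the 4 spots miR-181c-5p was the dimmest on 6 of 6 arrays, and miR-181a-5p exceeded it by 2.83 to 6.60 times. The lowest of these ratios was that of high phosphate replicate 3 and the highest that of high phosphate replicate 2. In the first copy this ratio ran from 3.15 to 9.24 and in the second from 2.02 to 3.60. In the first copy the mean of miR-181b-5p was below that of miR-181c-5p on high phosphate replicate 2, at 404 against 839 units. The spots behind these means were 392 and 415 units for miR-181b-5p and 102 and 1576 units for miR-181c-5p, so their order there is not settled.

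The test of whether paralogs responded differently used the log2 ratio of each pair within an array, which does not depend on how arrays are scaled. All 6 pairs were compared. The ratio of miR-181a-5p to miR-181c-5p averaged 1.91 ± 0.04 (SD, n = 3) on the normal arrays and 1.95 ± 0.61 (SD, n = 3) on the high arrays, which differ by 0.05. Its mean barely moved, while its spread over arrays was wider in high phosphate. For miR-181b-5p to miR-181c-5p the log2 ratio was 0.91 ± 0.47 and 1.19 ± 0.44 (SD, n = 3), a difference of 0.28 (2-sided exact permutation p = 0.6). For miR-181a-5p to miR-181b-5p it was 0.99 ± 0.46 and 0.76 ± 0.75 (SD, n = 3), a difference of -0.24 (2-sided exact permutation p = 0.7). The genomic neighbours miR-181c-5p and miR-181d-5p gave -1.61 ± 0.25 and -1.67 ± 0.33 (SD, n = 3), a difference of -0.07 (2-sided exact permutation p = 0.9). With all 4 spots, groups overlapped for all 6 pairs, and every p adjusted over the 6 was 1 (2-sided exact permutation tests, Benjamini-Hochberg). With 3 arrays a group these tests cannot show that paralogs behave alike.

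**Figure D2:**
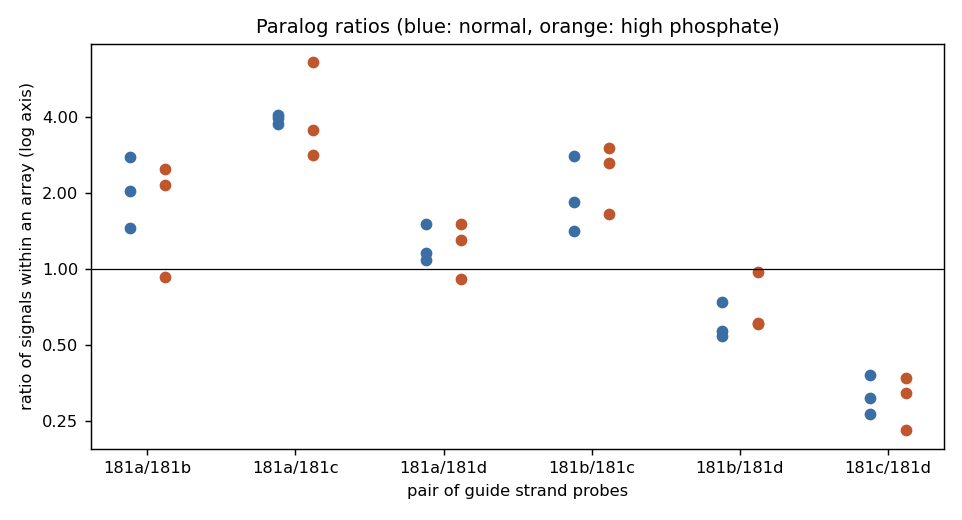
Ratio of probe signals within an array (log axis) for the 6 pairs of guide strands, with 1 point per array, normal phosphate in blue and high phosphate in orange. Each point uses the mean of the 4 spots; the groups overlap for every pair, and the pairs with ratios on both sides of 1 are those of miR-181a-5p with miR-181b-5p and with miR-181d-5p.

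The printed copies of a probe lay further apart on the high than on the normal arrays. Every mouse probe was printed as 2 spots in a block and 2 more in the block numbered 18 higher, so each array holds 2 copies, here called spot set 1 (blocks 1 to 18) and spot set 2 (blocks 19 to 36). Over the 129 tested probes the median absolute log2 ratio between the sets was 0.09, 0.16 and 0.23 on the normal arrays and 0.35, 0.48 and 0.28 on the high arrays. The groups did not overlap (exact permutation test, 2-sided, p = 0.1, which 3 arrays against 3 cannot go below).

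For miR-181a-5p the sets lay far apart. Set 1 averaged 4063, 5828 and 5390 units on the normal arrays and 5862, 7756 and 3253 units on the high arrays. Set 2 averaged 3806, 3917 and 3638 units in normal and 2033, 2068 and 2290 units in high phosphate. Set 1 exceeded set 2 by 2.88 times in high phosphate replicate 1 and by 3.75 times in high phosphate replicate 2, against 1.07 to 1.49 times on the normal arrays and 1.42 times in high phosphate replicate 3. Larger ratios between sets, in either direction, were seen for 16 of the 129 tested probes on high phosphate replicate 1 and for 9 on high phosphate replicate 2.

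The direction for miR-181a-5p depended on which printed copy was read, a comparison chosen after the spots were seen. With set 1 the log2 difference was 0.28 (SE 0.36, limma adjusted p = 0.783), and the groups overlapped. With set 2 it was -0.73 (SE 0.11; 95% interval -1.02 to -0.44), or 0.602-fold. Set 2 measured 3787 ± 140 units (SD, n = 3) for normal phosphate against 2130 ± 139 units (SD, n = 3) for high, and the arrays did not overlap (exact permutation test, 2-sided, p = 0.1). It ranked first of the 129 probes by p in set 2 and did not pass adjustment (limma, adjusted p = 0.142). In set 2 an unadjusted p under 0.05 was seen for 11 of 129 tested probes (8.53%), and groups did not overlap for 20 (15.5%). Opposite signs in the sets were common, at 52 of 129 tested probes (40.3%), and both tested members were among them.

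The position on the array goes with part of these ratios. The spots of miR-181a-5p lie in blocks 3 and 21, which hold another 36 probes with a mean of at least 500 units. In high phosphate replicate 2 all 36 were brighter in block 3, with a median log2 ratio of 0.84, against 1.91 for miR-181a-5p. In high phosphate replicate 1 their median was 0.09, with 26 of 36 brighter in block 3, against 1.53. On the 3 normal arrays their medians lay between -0.06 and 0.02. What set the 2 copies apart was not tested.

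For miR-181b-5p the sets agreed within 1.09-fold on the 3 normal arrays. On high phosphate replicate 2 set 1 averaged 404 units and set 2 3522 units, an 8.73-fold gap, and 2 of the 129 tested probes had a larger one there. With set 1 its log2 difference was -0.70 and with set 2 it was 0.48 (2-sided exact permutation p = 0.7 and 0.2). The blocks 16 and 34 that carry it held 41 other probes of at least 500 units, of which 36 were brighter in block 34 on that array, with a median log2 ratio of -0.65.

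The other members varied less between sets. For miR-181d-5p set 2 exceeded set 1 on all 3 high arrays, with log2 ratios of -0.42, -0.49 and -0.33, while the normal arrays ranged from -0.02 to 0.16. Gaps of this size were common, as 60, 63 and 58 of the 129 tested probes had a larger one, in either direction, on these high arrays. The log2 difference of miR-181d-5p was -0.33 (SE 0.27) with set 1 and 0.09 (SE 0.18) with set 2 (limma, adjusted p = 0.735 and 0.887). For miR-181c-5p the sets agreed within 1.29-fold on every array, but single spots on high phosphate replicate 2 ran from 102 to 1576 units. Its log2 difference was -0.07 with set 1 and -0.34 with set 2, and set 2 did not overlap between the groups (2-sided exact permutation p = 0.9 and 0.1). In set 2 this also held for 20 of the 129 tested probes (15.5%), a share that does not cover probes as dim as miR-181c-5p. Of the 4 members, miR-181c-5p alone kept its sign in both sets. Its set 1 value of -0.07 includes the spots of 102 and 1576 units, both in that set. Whether the sign holds without either of them was not tested.

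The pair ratios moved with the printed copy too. In set 2 the log2 ratio of miR-181a-5p to miR-181b-5p was 0.76 ± 0.64 on the normal and -0.43 ± 0.35 (SD, n = 3) on the high arrays, a difference of -1.19, whereas in set 1 the difference was 0.87. The ratio to miR-181d-5p differed by -0.84 in set 2 and by 0.53 in set 1, and the ratio to miR-181c-5p by -0.45 and 0.26. Groups did not overlap for these 3 pairs in set 2 and overlapped for all 6 pairs in set 1. The 3 pairs share the miR-181a-5p probe, so they are not separate observations. Adjusted over the 6 pairs, the lowest p was 0.2 in set 2 and 0.84 in set 1 (2-sided exact permutation tests, Benjamini-Hochberg), and 3 arrays against 3 cannot pass such a test.

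**Figure D3:**
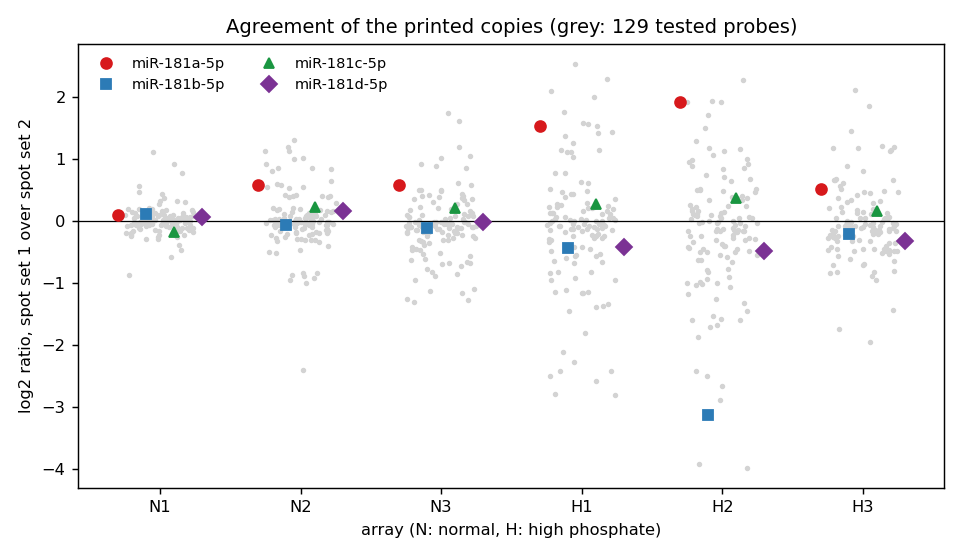
Log2 ratio of spot set 1 over spot set 2 on each array for the 129 tested probes (grey) and the 4 guide strands (coloured). Points spread more widely on the high phosphate arrays, where miR-181a-5p reaches 1.91 and miR-181b-5p reaches -3.13 on H2.

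**Figure D4:**
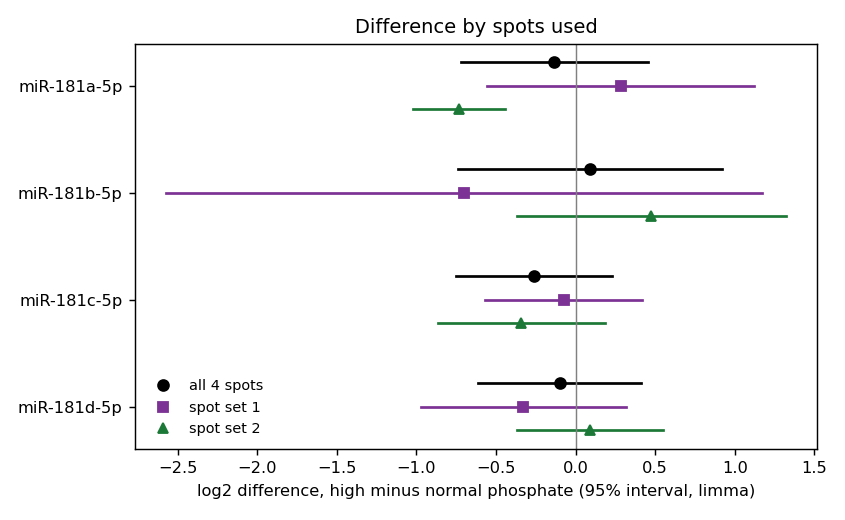
Log2 difference, high minus normal phosphate, with 95% intervals from limma, for all 4 spots (black), spot set 1 (purple) and spot set 2 (green); miR-181a-5p and miR-181d-5p come from the fit of the 129 tested probes, miR-181b-5p and miR-181c-5p from the fit of all 1118 mouse probes. The interval of miR-181a-5p in set 2 is the one that does not include 0.

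The opposite arms of the hairpins, the passenger strands, were close to background. The array carries 6 such probes, and 0 of them reached the viral threshold on any array. The strand miR-181b-2-3p was below the Empty threshold on 6 of 6 arrays, while miR-181a-1-3p and miR-181d-3p exceeded it on 4 of 6, with at most 8.25 units. The probe miR-181a-2-3p ranged from 5.75 to 9 units and miR-181c-3p from 25.3 to 56.5 units. The passenger strand whose arrays did not overlap was miR-181b-1-3p, the partner of miR-181b-5p from chromosome 1, which is shown for that reason with its own seed in capitals (RefSeq, GRCm38.p6, chr1:137966690-137966710, plus strand).
miR-181b-1-3p: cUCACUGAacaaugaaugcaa

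It measured 22, 15.5 and 10.8 units in normal phosphate and 60.3, 25 and 47.5 units in high phosphate. All 3 high arrays lay above all 3 normal arrays (exact permutation test, 2-sided, p = 0.1). It was singled out from the 6 passenger probes for this, and among the 989 mouse probes too dim for the test 78 (7.89%) did not overlap in scanner units, 56 of them (5.66% of the 989) with the high arrays above. A count of 1 in 6 is no result about the passenger strands. In spot set 2 alone the groups of miR-181b-1-3p overlapped, with 22.5, 19 and 9.5 units on the normal arrays and 43, 14.5 and 59 units on the high arrays. In the authors' deposited table its fold was 2.74 (p = 0.0721, false discovery rate 0.794). Values this low were not tested across probes. The guide strand miR-181b-5p, whose signal pools the hairpins of chromosomes 1 and 2, overlapped between the groups.

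The probes whose normalized log2 level followed the tested members most closely over the 6 arrays were picked by Pearson correlation among 128 other tested probes, as a description with no test. For miR-181a-5p they were miR-3058-3p (r = 0.945), miR-27b-3p (r = 0.893) and miR-98-5p of the let-7 family (r = 0.890). For miR-181d-5p they were miR-144-3p, a red cell miRNA (r = 0.941), miR-30e-3p (r = 0.925) and miR-1899 (r = 0.807). The 2 trios share no probe. All values of an array share its labelling and scan.

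Other miRNAs that act on endothelial inflammation and NF-kB were read as the pathway around miR-181b. Of 12 on the list, 7 were bright enough for the test, 0 passed, and 0 had an unadjusted p under 0.05, against 9 of all 129 tested probes (limma). A lower mean in high phosphate was seen for 6 of the 7, with a median log2 difference of -0.30, against 67 of 129 and a median of -0.02 over all tested probes. The member with the lowest p was miR-92a-3p, which represses the protective transcription factor KLF2 in endothelium. It averaged 10928 ± 2165 units (SD, n = 3) for normal and 7284 ± 1400 units (SD, n = 3) for high phosphate. Its log2 difference was -0.38 (SE 0.21, limma adjusted p = 0.828). The next was miR-21a-5p, induced in many inflamed tissues, at 0.36 (SE 0.25, limma adjusted p = 0.853), the one with a higher mean. The brightest were miR-10a-5p, which restrains NF-kB in endothelium, with a log2 difference of -0.28 (SE 0.22), and miR-146b-5p, which lowers the NF-kB adaptors TRAF6 and IRAK1, with -0.01 (SE 0.23). Below the threshold were miR-155-5p, miR-222-3p, miR-223-3p, miR-31-5p and miR-17-3p, of which the last ranged from 9.25 to 16 units.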

How the data were processed

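Small RNA of 6 samples was hybridised to 1-colour Hy3 arrays. Per the file headers, the authors deposited spot intensity as foreground and as foreground minus background, for 15840 spots. The authors also deposited normalized intensity values, which equalled the median foreground minus background of a probe divided by 1 factor per array (319 to 344.5 units), and a table of fold change (ratio of test over control), p-value and false discovery rate. The sources used here name no scanner or image software.

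From the spots, normexp with an offset of 50 (limma 3.58.1 in R 4.3.3) corrected the background, spots of a probe were averaged, mouse and viral miRNA probes were quantile normalized, and values were taken to log2. Mouse probes above the 95th percentile of viral probes on at least 3 arrays were fitted with lmFit and eBayes (2-sided), and p-values adjusted by Benjamini-Hochberg were called below 0.05. Values of single probes, and ratios of pairs, were compared with 2-sided exact permutation tests over the 6 arrays. The fit was tested on simulated data. Alternatives changed the background correction, the scaling, the averaging of spots, the filter, the variance model, array weights, the replicate block and the arrays used. The reading of each spot set alone was added after the data were seen.

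The members and lists were chosen with earlier results of these data known. The text names the 4 members, the passenger strands, the 3 probes most correlated with each tested member, and from the NF-kB list the 2 with the lowest p and the 2 with the highest mean. Other list members are named where they complete a count. The number of arrays limits the precision.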

Additional observations from a re-analysis of the deposited data

How the results depend on the processing

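Direction was the main thing that moved, though most alternatives, which reuse the same arrays, kept it. The sign held in 17, 18, 19 and 16 of 21 for miR-181a-5p, miR-181b-5p, miR-181c-5p and miR-181d-5p, and in 11 to 13 of 14 for the pairs. Of miR-181a-5p and miR-181d-5p, 0 passed limma under the 21 alternatives. In 20 of the 21, miR-181b-5p and miR-181c-5p had exact tests alone, as the pairs always did, and those cannot go below 0.1, so they say nothing about stability. Leaving out each array in turn gave log2 differences from -0.35 to 0.057 for miR-181a-5p, from -0.17 to 0.30 for miR-181b-5p, from -0.43 to -0.07 for miR-181c-5p and from -0.27 to 0.030 for miR-181d-5p, with 0 probes called each time. The differences, high minus normal, of the pairs' log2 ratios ran from -0.50 to 0.19 (miR-181a-5p to miR-181b-5p), -0.29 to 0.30 (miR-181a-5p to miR-181c-5p), -0.18 to 0.18 (miR-181a-5p to miR-181d-5p), 0.06 to 0.53 (miR-181b-5p to miR-181c-5p), -0.011 to 0.35 (miR-181b-5p to miR-181d-5p) and -0.21 to 0.12 (miR-181c-5p to miR-181d-5p). Scaling to the spike controls gave 0.41, 0.64, 0.36 and 0.43 for miR-181a-5p, miR-181b-5p, miR-181c-5p and miR-181d-5p, and scaling to the Hy3 spots 0.44, 0.68, 0.40 and 0.46, with 7 probes called by the latter (limma, lowest adjusted p = 0.0286) and no member among them. The median of spots gave 0.033 for miR-181d-5p. Spot set 1 alone gave 0.28 for miR-181a-5p and -0.70 for miR-181b-5p, and pair differences of 0.87 (miR-181a-5p to miR-181b-5p), 0.53 (miR-181a-5p to miR-181d-5p), -0.61 (miR-181b-5p to miR-181c-5p), -0.34 (miR-181b-5p to miR-181d-5p) and 0.27 (miR-181c-5p to miR-181d-5p). Spot set 2 alone gave -0.73 for miR-181a-5p, 0.48 for miR-181b-5p and 0.092 for miR-181d-5p, and pair differences of -1.19 (miR-181a-5p to miR-181b-5p), -0.45 (miR-181a-5p to miR-181c-5p), -0.84 (miR-181a-5p to miR-181d-5p), 0.73 (miR-181b-5p to miR-181c-5p), 0.35 (miR-181b-5p to miR-181d-5p) and -0.38 (miR-181c-5p to miR-181d-5p). The cause of these changes was not tested. The replicate number is shared by the groups but nothing in the labels pairs the arrays, and same-numbered arrays correlated at 0.22, 0.03 and -0.18 in their deviations from the group means. With the replicate number as a block the difference of miR-181a-5p stayed -0.13 (limma, adjusted p = 0.933), and the block called 0 probes. Signals near 10 units, as for most passenger strands, allow no comparison.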
